A study of Mus musculus with 8 samples.

Results

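Liver RNA of mice treated to delete the receptor MET and to block the receptor EGFR was set against that of control mice 1 day after TCPOBOP, a compound that makes mouse hepatocytes divide. The comparison used both arrays taken at day 1, 1 for each arm, of 8 arrays in all. The other 6 arrays held both arms at days 0, 2 and 5 and were used to see where day 1 stood apart. Each array was hybridised with 6 µg of total RNA from pooled livers, so an arm had no replicate at day 1 and differences between animals are not seen. The number of mice in a pool and their sex are not given in the sources used here.

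All mice carried floxed Met and a tamoxifen-inducible Cre (Metff/ff:ERCre+/+ in one label, METfl/fl: TamCre+/+ in another), the controls included. The MET KO + EGFRi mice had 5 injections of tamoxifen on consecutive days (100 µl at 10 mg/ml in corn oil, into the abdomen), which deletes Met, and then ate a diet with canertinib, a blocker of EGFR kinase, aimed at 80 mg/kg per day and begun 1 day before TCPOBOP. Control littermates had corn oil without tamoxifen. Both arms had 1 gavage of TCPOBOP at 3 mg/kg, at least 5 days after the last injection. Whether the day 0 mice also had TCPOBOP is not stated. Tamoxifen, the loss of Met and canertinib were given to the same mice, so their parts in any difference cannot be told apart. The promoter that drives Cre is not given in the sources used here, nor is the share of liver cells that lost Met.

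MET is the receptor of hepatocyte growth factor and EGFR that of epidermal growth factor and its relatives, and both send growth signals through ERK and other kinases in hepatocytes. TCPOBOP acts by another route, by activating the nuclear receptor CAR (encoded by Nr1i3), which switches on enzymes of drug metabolism and brings hepatocytes into the cell cycle without injury. Liver also makes most acute phase proteins of the blood, under control of IL-6, STAT3 and C/EBP factors. It makes cholesterol and fat as well.

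Values are deposited signals of the Affymetrix MAS5 software, on a linear scale. A gene was read from its brightest probe set and kept where its mean over the 8 arrays passed a filter near a signal of 230, which left 12112 of 18193 genes. Differences are log2(signal + 71) in MET KO + EGFRi minus control, so 1 stands for 2-fold and folds of weak genes are understated. Where a signal of the pair lies near or below 71, the size of the difference depends on this constant. Bcl6, at 1.86, stood at 2.68 without it and at 1.12 with the median of all values in its place. A pair of signals is given as control against MET KO + EGFRi at day 1, with the log2 difference after it in brackets. Signals of different genes come from different probe sets and are not compared. The median signal of all probe sets was 238.2 in the control array of day 1 and 237.8 in its MET KO + EGFRi counterpart. Albumin, transthyretin and the other 8 hepatocyte markers that passed the filter, of 12 listed, had a median difference of -0.0061, and their summed signal ran from 288683 to 466000.0 in the control arrays and from 320722 to 439872 in the MET KO + EGFRi arrays. The 11 reference genes that passed, of 14, had a median difference of -0.13. Met itself had 926 against 1049 (0.17). Met signals were 1444, 926, 1336 and 1149 in control against 1502, 1049, 2034 and 1358 in MET KO + EGFRi on days 0, 1, 2 and 5. They were not lower in the arm labelled as deleted, and since the place of this probe set relative to the deleted part of Met was not examined here, it does not check the labels.

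At day 1, 350 of 12112 genes (2.89%) were at least 2-fold higher in MET KO + EGFRi and 319 (2.63%) at least 2-fold lower, together 5.52%. At any size, 6150 (50.8%) were higher and 5958 (49.2%) lower. The lower and upper quartiles of all differences were -0.24 and 0.26, and the extremes were 6.04 for Saa2 and -3.63 for Rgs16. These shares are the background against which each gene group below is read, and no p-value was computed for day 1 alone. The 5 genes furthest above control were metallothioneins (Mt1 and Mt2) and acute phase proteins (Saa2, Lcn2 and Serpina3n), followed by Mmd2 and Saa1. Those furthest below were a mixed group, with Rgs16, an inhibitor of G protein signalling, the major urinary proteins Mup10 and Mup3, the insulin-sensitising serpin Serpina12 and the enzyme Cyp2f2.

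**Figure D1:**
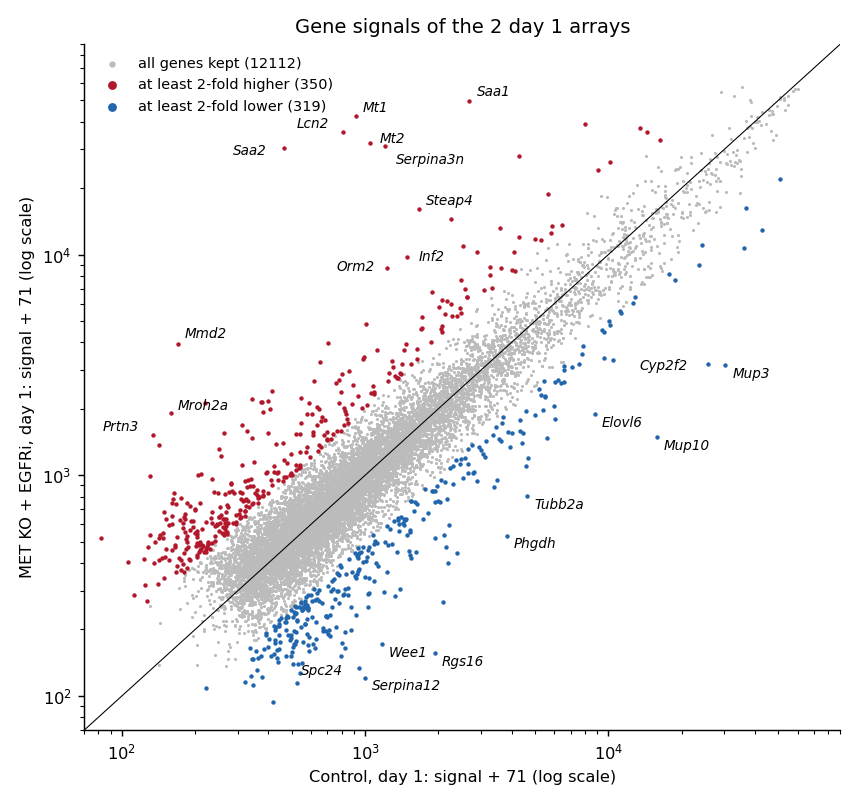
Each point is 1 of 12112 genes, with its signal + 71 in the control array of day 1 (horizontal, log scale) and in the MET KO + EGFRi array of day 1 (vertical, log scale), and the line marks equal signals. Red points are the 350 genes at least 2-fold higher and blue points the 319 at least 2-fold lower, and Saa2, Mt1, Lcn2, Mt2 and Serpina3n lie furthest above the line.

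Metallothioneins are small proteins that bind zinc and copper, and their genes are switched on by metals through the factor MTF1 and by glucocorticoids and inflammation. Mt1 had 843 against 42558 at day 1, 46.6-fold higher (5.54). Mt2 had 978 against 31833, 30.4-fold higher (4.93). Across days 0, 1, 2 and 5, Mt1 was at 4632, 843, 2328 and 2004 in control against 39104, 42558, 10537 and 8962 in MET KO + EGFRi. The control array of day 1 was the lowest of the 4 controls for both genes, and the MET KO + EGFRi arrays of days 0 and 1 were the highest of that arm, with no overlap between arms. The Mt1 values come from a probe set of a kind that can bind related RNAs, and its other probe set gave 2.56 at day 1. Slc39a14, a zinc importer of the hepatocyte, stood at 3515 against 13059 (1.87), whereas Slc39a4 (-0.74), the zinc exporter Slc30a1 (-0.61) and Mtf1 itself (-0.065) lay within 2-fold. Of the 7 metallothionein and zinc carrier genes kept, of 9 listed, 3 stood 2-fold or more above control and 0 as far below it, beside 2.89% and 2.63% of all genes, and their median was 0.18.

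The RefSeq promoter windows of Mt1 and Mt2, from 250 bases before to 50 after the start of the gene, are printed because these neighbours on chromosome 8 stood highest together. Capitals mark matches to the core of the metal response element, searched on both strands as TGCACNC and TGCGCNC. Mt1 (GRCm38.p6, chr8:94178839-94179138, plus strand) held 3 matches and Mt2 (chr8:94172368-94172667, plus strand) held 4.
Mt1: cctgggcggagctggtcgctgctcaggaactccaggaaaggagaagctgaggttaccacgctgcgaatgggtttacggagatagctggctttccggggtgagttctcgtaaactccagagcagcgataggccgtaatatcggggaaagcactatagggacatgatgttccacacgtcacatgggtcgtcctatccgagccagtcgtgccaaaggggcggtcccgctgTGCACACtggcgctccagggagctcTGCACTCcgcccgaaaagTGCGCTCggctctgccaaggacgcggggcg
Mt2: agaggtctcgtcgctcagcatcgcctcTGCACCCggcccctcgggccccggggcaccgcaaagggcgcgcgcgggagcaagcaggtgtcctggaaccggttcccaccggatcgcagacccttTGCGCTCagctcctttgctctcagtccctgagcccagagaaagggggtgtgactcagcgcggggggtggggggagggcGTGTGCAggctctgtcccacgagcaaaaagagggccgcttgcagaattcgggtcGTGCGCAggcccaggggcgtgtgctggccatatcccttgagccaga
Of 32851 windows of this length in the table, 25.7% held at least 1 match and 1.97% at least 3. Aligned to each other, the windows of Mt1 and Mt2 were identical at 46.3% of positions. Of 5 kept metallothionein and zinc carrier genes with a window, 4 (80.0%) held a match, against 28.2% of all 27025 genes with a window.

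Acute phase proteins were the gene list with the highest median, 0.97. Of 27 listed, 24 were kept, 22 of these were higher at any size, 11 at least 2-fold higher, against 2.89% of all genes, and none at least 2-fold lower. Saa1 and Saa2, serum amyloids that bind to HDL, had 2612 against 49441 (4.21) and 391 against 30384 (6.04). Lipocalin 2 (Lcn2), which sequesters bacterial siderophores, had 743 against 36042 (5.47). The protease inhibitor Serpina3n had 1139.6 against 31110.3 (4.69). Steap4, a metal reductase, had 1588 against 16004 (3.28), and the orosomucoid Orm2 1154 against 8651 (2.83). These 6 genes lay 7.12 to 65.9-fold above control, and each was above control on days 0, 2 and 5 as well.

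Lrg1 (2.70), Saa3 (2.49), Saa4 (1.73), Itih3 (1.32) and Orm1 (1.01) were the other list members at least 2-fold higher. The fibrinogen chains Fga, Fgb and Fgg stood at 0.35, 0.70 and 0.67, and haptoglobin (Hp), at 38182 against 50260.3, at 0.40. Hemopexin (0.033), ceruloplasmin (0.028), hepcidin (0.059) and C-reactive protein (-0.15) were nearly equal in both arms. The list's medians were 1.18, 0.97, 0.84 and 0.79 on days 0, 1, 2 and 5. For 15 of the 24 genes all 4 MET KO + EGFRi arrays lay above all 4 control arrays, which held for 3.50% of all genes.

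The members did not share 1 course over the days. Saa1 stood at 1516, 2612, 1046 and 2041 in control against 42623, 49441, 56587 and 13192 in MET KO + EGFRi on days 0, 1, 2 and 5, and Lcn2 at 622, 743, 525 and 911 and 34565, 36042, 7771 and 5470.1. Both were high in MET KO + EGFRi at day 0 already, and Lcn2 was lower in that arm from day 2. Serpina3n stood at 4460.0, 1139.6, 1758 and 2279.5 and 26828, 31110.3, 10139 and 6788, and like Mt1 it had its lowest control signal at day 1. Its difference was 4.69 at day 1 against 2.57, 2.48 and 1.54 on days 0, 2 and 5, while that of Saa1 was 4.21 against 4.75, 5.67 and 2.65. The Saa2 probe set is of a kind that can bind related RNAs, so part of its signal may come from a relative. How alike the transcripts of Saa1 and Saa2 are was not examined. These neighbouring genes are 95.3% identical in their promoter windows. The windows are printed with the single C/EBP match of each in capitals (TTGCNNAA, both strands).
Saa1: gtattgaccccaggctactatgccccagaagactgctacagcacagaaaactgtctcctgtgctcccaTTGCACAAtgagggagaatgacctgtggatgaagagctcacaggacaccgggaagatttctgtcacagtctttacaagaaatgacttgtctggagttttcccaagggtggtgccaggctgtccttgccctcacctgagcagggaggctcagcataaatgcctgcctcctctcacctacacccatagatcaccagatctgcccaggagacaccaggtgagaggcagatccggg
Saa2: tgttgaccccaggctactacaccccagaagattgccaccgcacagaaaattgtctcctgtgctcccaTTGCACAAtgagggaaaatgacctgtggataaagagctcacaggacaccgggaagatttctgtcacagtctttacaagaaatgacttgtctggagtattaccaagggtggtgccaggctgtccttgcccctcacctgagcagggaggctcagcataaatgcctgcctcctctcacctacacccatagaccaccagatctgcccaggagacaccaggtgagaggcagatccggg
In GRCm38.p6, Saa1 lies at chr7:46742931-46743230 on the minus strand and Saa2 at chr7:46751583-46751882 on the plus strand. Of 21 acute phase genes with a window, 12 (57.1%) held at least 1 such match, against 12.2% of all genes with a window. Of single windows, 10.8% held one.

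Signalling genes of the IL-6, STAT3 and C/EBP routes, feedback inhibitors among them, stood above control by less than the acute phase list. Of 18 kept in the list of IL-6, STAT3 and C/EBP signalling, 16 were higher and 4 at least 2-fold, with a median of 0.29. Of all genes, 50.8% were higher and 2.89% at least 2-fold. The factor Cebpd had 110.5 against 593 (1.87). Stat3 had 1994 against 6149 (1.59), although its 3 probe sets ran from -0.03 to 1.74. The NF-kB partner Bcl3 had 689 against 2539 (1.78), and Socs2, a feedback inhibitor induced by growth hormone, 713 against 2637 (1.79), with kept probe sets from 0.22 to 2.25. Socs3, the feedback inhibitor of IL-6 signalling, had 615 against 1194 (0.88), after 322 and 2454 at day 0. The IL-6 receptor chains Il6ra (0.073, but 1.93 without probe sets that can bind related RNAs) and Il6st (0.12), the kinase Jak2 (-0.033) and the factor Cebpa (0.0026) lay near 0. For this list the difference was larger at day 0, with medians of 0.89, 0.29, 0.28 and 0.33 on days 0, 1, 2 and 5.

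Several glucocorticoid targets stood above control. Of 16 kept, 6 stood 2-fold or more above control and 1 as far below it, against 2.89% and 2.63% of all genes. Their median was 0.46. Igfbp1, which binds insulin-like growth factors and is held down by insulin, had 345 against 2327 (2.53). Ddit4, an inhibitor of mTORC1, had 203 against 771 (1.62). The chaperone Fkbp5 had 1932 against 5739 (1.54), with 0.96 from its other kept probe set, the factor Zbtb16 590.4 against 1695 (1.42), with -0.0088 from its other, and the clock gene Per1 429 against 929.8 (1.00). Gadd45g, a stress-induced growth arrest gene, had 10.8 against 447 (2.66), and the size of the difference rests on a control signal below the added 71. At any size 12 of the 16 were higher and 4 lower, against 50.8% and 49.2% of all genes. Dusp1, a phosphatase that is also an ERK response gene, was lower, at 1139 against 428 (-1.28). Sgk1 (-0.92) and Angptl4 (-0.92, or -0.45 as the mean of its probe sets) were lower by less than 2-fold. Tsc22d3, among the best known glucocorticoid targets, was nearly equal in both arms (-0.032), and Pck1 and Tat stood at 0.18 and 0.54. Igfbp1 was at 838, 345, 467 and 726 in control against 14038, 2327, 2367 and 836 in MET KO + EGFRi on days 0, 1, 2 and 5, so the arms were furthest apart at day 0.

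Markers of macrophages and of neutrophils were also higher, and they are given here as measured facts beside the acute phase genes. All 17 markers of Kupffer cells and macrophages passed the filter, 16 were higher and 6 at least 2-fold (C1qb, Ctss, Cd5l, Mpeg1, C1qa and Lyz2), with a median of 0.72. The shares of all genes were 50.8% and 2.89%. The complement chain C1qb had 712 against 2063 (1.45), the cathepsin Ctss 1396 against 3850.1 (1.42) and Cd5l 3548 against 8641 (1.27). Clec4f (0.72), Vsig4 (0.70) and Timd4 (0.69), which mark resident Kupffer cells, lay below 2-fold. In a bulk sample, more cells of a type and more RNA per cell cannot be told apart. Their summed signal in control was 41319, 28574, 34972 and 53648 on days 0, 1, 2 and 5, so it was lowest at day 1. In MET KO + EGFRi it was 49198, 47348, 70854 and 79934. Like this sum, C1qb had its lowest control signal at day 1, with 1866, 712, 1437 and 2242 in control against 1691, 2063, 2701 and 2427 in MET KO + EGFRi, and its 3 probe sets ran from 0.47 to 1.45.

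Of 22 neutrophil and monocyte markers 12 were kept, 11 of them higher and 3 at least 2-fold, against 50.8% and 2.89% of all genes. The protease Prtn3 had 63.1 against 1457 (3.51), and the calgranulins S100a8 and S100a9 had 515 against 2056 (1.86) and 358 against 1317 (1.69). For these 3 genes all 4 MET KO + EGFRi arrays lay above all 4 control arrays. Elane, a protease of the same granules as Prtn3, stood at 952 against 566 (-0.68), and Mpo at 0.63. Ly6g, Camp, Retnlg, Cxcr2 and Itgam did not pass the filter. The summed signal of the 12 markers ran from 5858 to 6407 in the control arrays and from 11178 to 11916 in the MET KO + EGFRi arrays. Summed signals of lymphocyte, sinusoidal endothelial and stellate markers at day 1 were 5828, 15589 and 18196 in control against 5895, 19071 and 24015 in MET KO + EGFRi, over 8 of 21, 17 of 20 and 12 of 17 markers kept. Only 3 of 11 cholangiocyte and 2 of 10 erythroid markers were kept. The part of other cell types in the acute phase differences was not tested.

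**Figure D2:**
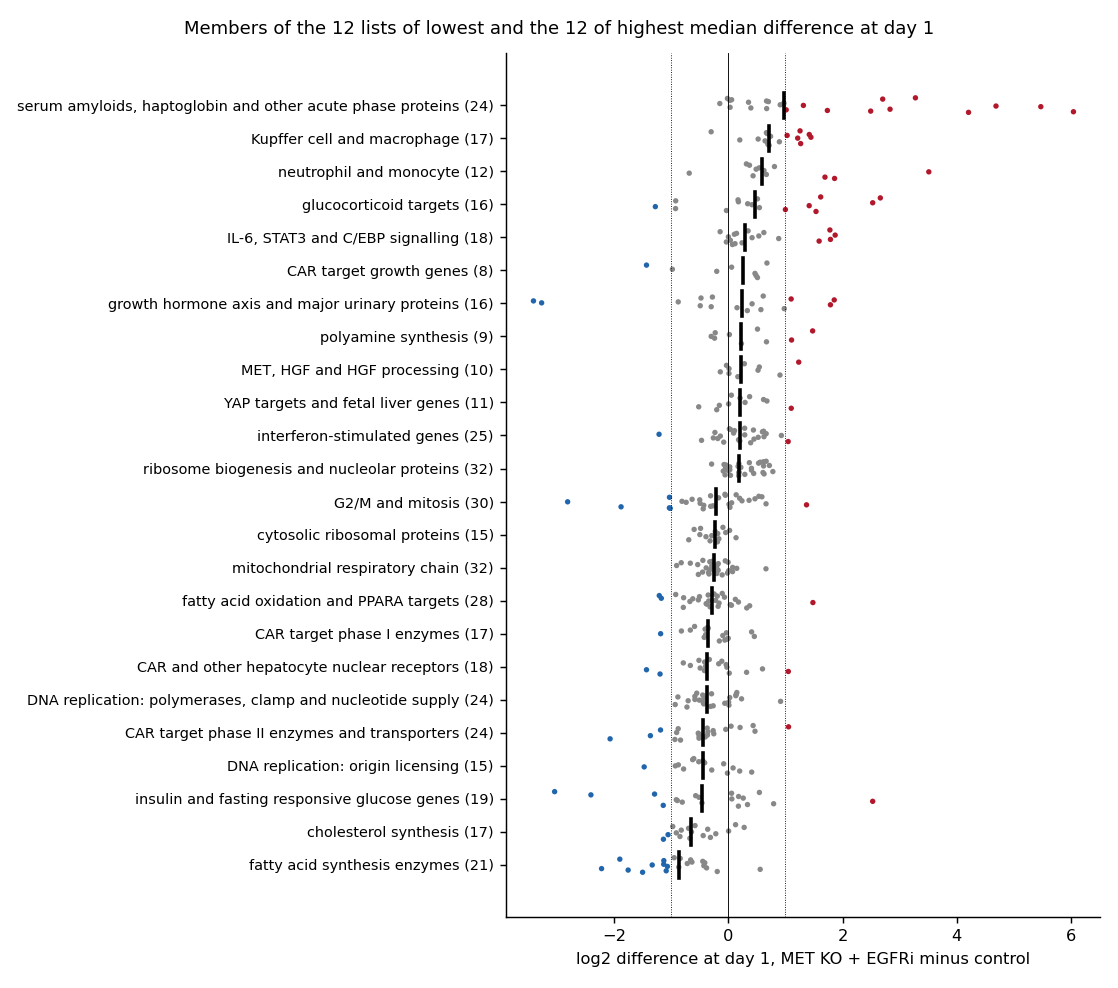
Each row is a gene list with the number of genes kept in brackets, each point a member's log2 difference at day 1 (MET KO + EGFRi minus control, horizontal axis) and each black bar the list's median. Points at or beyond 1 are red and those at or below -1 blue, and the medians run from -0.87 for fatty acid synthesis enzymes to 0.97 for acute phase proteins.

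Enzymes that make fatty acids were the list with the lowest median, -0.87. Of 21 kept, 20 were lower and 9 at least 2-fold lower, against 2.63% of all genes. Elovl6, which lengthens palmitate, had 8728 against 1821 (-2.22), and the desaturases Scd1 and Fads2 had 36187 against 10692 (-1.75) and 3538 against 1363 (-1.33). ATP-citrate lyase (Acly) had 9529.8 against 3325 (-1.499), and its 4 kept probe sets ran from -1.499 to -0.32. Pnpla3, a lipid droplet protein switched on with lipogenesis, had 1871 against 449.9 (-1.90) and malic enzyme Me1 17723 against 8062 (-1.13), with -2.001 from its other probe set. Acss2 (-1.13), Fasn (-1.09) and Elovl2 (-1.07) completed the 9, and Acss2 stood at -0.90 as the mean of its probe sets. Acaca (-0.19), which catalyses the committed step, and the regulators Srebf1 (-0.64) and Mlxipl (-0.45) were lower by less than 2-fold, and Scd2 was the only member above control (0.56).

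The list stood about as low at day 0, with medians of -0.91, -0.87, -0.51 and -0.47 on days 0, 1, 2 and 5. For 10 of its 21 genes all 4 MET KO + EGFRi arrays lay below all 4 controls, against 2.75% of all genes. Elovl6 stood at 9663, 8728, 6028 and 5306 in control against 1698, 1821, 2401 and 2330.2 in MET KO + EGFRi. Pnpla3 was higher in the control array of day 1 than on the other days, at 602, 1871, 782 and 1496, and its difference of -1.90 compares with -0.85, -0.97 and -1.13 on days 0, 2 and 5.

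Cholesterol synthesis was lower as well, and here the gap was absent at day 0, with medians of -0.096, -0.64, -1.28 and -0.35 on days 0, 1, 2 and 5. Of 17 genes kept, 14 were lower at day 1 and 2 at least 2-fold lower, against 49.2% and 2.63% of all genes. Hmgcs1, which makes HMG-CoA, had 24242 against 11002 (-1.13), and squalene synthase Fdft1 9350.3 against 4468 (-1.05), and with the mean of their probe sets they stood at -0.88 and -0.83. Sc5d (-0.97), Lss (-0.91), Idi1 (-0.85) and Msmo1 (-0.82) followed. At day 0 Hmgcs1 was at 8797 in control and 8452 in the other arm, and Idi1, with 14159 against 7849.6 at day 1, at 5253 and 4272. In both genes both arms were above their day 0 signal, control by more.

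Of 15 genes of cholesterol uptake, export and control, Insig1, which retains the regulators of sterol synthesis in the endoplasmic reticulum and is itself their target, had 6130.4 against 2637 (-1.20). The exporter Abca1, a target of LXR, had 5212 against 11611 (1.14) and was the only one at least 2-fold higher, against 2.89% of all genes. Stard4 (-0.71), Abcg5 (-0.66), Scap (-0.55, or -1.07 as the mean of its probe sets) and Srebf2 (-0.41) were lower by less than 2-fold, and the list median was -0.20.

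Genes of fat storage differed in both directions. Of 21 kept, 4 stood 2-fold or more above control (Plin4, Fitm1, Cd36 and Lpin1) and 3 as far below it (Pnpla3, G0s2 and Lpin2). The shares of all genes were 2.89% and 2.63%. G0s2, an inhibitor of lipolysis, had 619.5 against 125 (-1.81), and its 4 MET KO + EGFRi signals (125 to 229.8) all lay below its 4 control signals (619.5 to 2034). Plin4, a lipid droplet coat protein, had 75.9 against 450.0 (1.83), and the fatty acid transporter Cd36 268 against 888 (1.501). For both, the control array of day 1 was the lowest of all 8, with 1382, 268, 973 and 592 for Cd36 in control against 1248, 888, 1029.6 and 767 in MET KO + EGFRi, and 3 probe sets of Cd36 ran from 0.20 to 1.501. Lpin1 stood at 1630.4 against 4536 (1.44), with 1.38 from its other probe set. Of 28 genes of fatty acid oxidation, Ehhadh, a peroxisomal enzyme under PPARA, was at least 2-fold higher (4238 against 11964, 1.48) and Fabp1 (50572 against 21857, -1.21) and Fgf21 (534 against 198, -1.17) at least 2-fold lower. The rate-limiting Cpt1a stood at 0.32, and the list median was -0.28.

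Among 19 insulin and fasting responsive genes of glucose metabolism the median was -0.46, with 1 at least 2-fold higher (Igfbp1) and 4 at least 2-fold lower. The shares of all genes were 2.89% and 2.63%. Glucose-6-phosphatase (G6pc) had 6499.5 against 2915 (-1.14) and the glucose transporter Slc2a2 6309 against 2538 (-1.29). Slc2a2 was at 12201, 6309, 6490.1 and 5870.3 in control against 4424, 2538, 5966 and 6019 in MET KO + EGFRi, apart at days 0 and 1 and close at days 2 and 5. Ppp1r3c, a glycogen targeting subunit, had 728 against 80 (-2.40), whereas its other probe set gave -0.12. Serpina12 had 925 against 50.1 (-3.04), from 1 of its 2 probe sets. Irs1 (-0.91), Igfbp2 (-0.89), Gys2 (-0.80) and Foxo1 (-0.51, or 0.066 as the mean of its probe sets) were lower by less than 2-fold, and Pck1 (0.18) and Fbp1 (0.34) of gluconeogenesis were not lower. With the mean of all probe sets of a gene in place of the brightest, the list median was 0.063.

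The major urinary proteins Mup10 and Mup3, pheromone carriers that the liver secretes under growth hormone, lay far below control. Mup10 had 15723 against 1415 (-3.41) and Mup3 30231 against 3077 (-3.27). Mup10 stood at 3099.5, 15723, 6501 and 2552 in control against 1421, 1415, 436 and 991 in MET KO + EGFRi on days 0, 1, 2 and 5, so the arms did not overlap and the control array of day 1 was the highest. The Mup3 probe set is of a kind that can bind related RNAs, and members of this gene family are nearly identical, so the split between them is uncertain. A second Mup3 probe set, too dim to be kept, gave 0.037, and Mup5 stood at -0.88. In the same list of 16, Socs2 (1.79), Bcl6 (66.2 against 425, 1.86) and Cux2 (308 against 743, 1.10, with 0.44 from its other kept probe set), which all act in growth hormone signalling or its sex-specific programme, were at least 2-fold higher. The growth hormone receptor Ghr (0.33), Igf1 (0.57) and Stat5b (-0.49) lay within 2-fold. The shares of all genes were 2.89% higher and 2.63% lower by at least 2-fold.

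Clock and clock output genes were split, with 4 of 18 at least 2-fold above control and 4 as far below it, which is 8 of 18 against 5.52% of all genes. Nfil3 had 141 against 947 (2.27), Ciart 129 against 627 (1.80) and Cry2 132 against 474 (1.43), and Per1 429 against 929.8 (1.00). Rgs16 had 1863 against 84.7 (-3.63), Wee1 1098 against 100.1 (-2.77), Bhlhe40 5922 against 1996 (-1.54) and Dbp 4935 against 1799 (-1.42). Wee1 is also the kinase that holds CDK1 back before mitosis. Rgs16 stood at 182, 84.7, 1303 and 1974 in MET KO + EGFRi against 2719, 1863, 1442 and 1229 in control, low at days 0 and 1 and close to control at day 2. Its 2 dimmer probe sets, not kept, gave -0.30 and -0.50 at day 1. Of the core clock genes, Arntl (-0.25, or 0.53 as the mean of its probe sets), Clock (-0.43), Per2 (0.25), Per3 (0.065) and Nr1d1 (-0.11) lay within 2-fold, unlike Cry2 and Per1. The hour at which livers were taken is not given in the sources used here, and its part in these differences was not tested.

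Cyp2b10, the classic target of CAR, was about equally high in both arms at day 1, with 38898 against 37324 (-0.059) after 444 and 356 at day 0. Of 17 phase I enzymes kept, 15 were lower (49.2% of all genes), with a median of -0.35. At least 2-fold lower was 1 (2.63% of all genes). That was Cyp2c55, with 36847 against 16179.7 (-1.18) after 788 and 462 at day 0. Cyp2c29 (-0.018) and Cyp3a11 (-0.031) were nearly equal in both arms, and Cyp1a2 (28787 against 16277, -0.82) and Ephx1 (-0.59) were lower by less than 2-fold.

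Phase II enzymes and transporters were lower in 19 of 24, with a median of -0.43 and 3 at least 2-fold lower. The shares of all genes were 49.2% and 2.63%. The glutathione transferase Gsta4 had 4536 against 1028 (-2.07), Gstm6 3035 against 1136 (-1.36) and the sulfotransferase Sult3a1 5942 against 2572 (-1.19). All 11 glutathione transferases of this list that were kept were lower, from -2.07 to -0.25, and members of this family can share probe sets. The export pump Abcc4 was the only gene at least 2-fold higher (629 against 1384, 1.06), from 26.1 and 124 at day 0. Nr1i3, the receptor itself, had 2065 against 863 (-1.19), and stood at 3141, 2065, 1784 and 1887 in control against 1408, 863, 790.0 and 1708 in MET KO + EGFRi, lower on each of the 4 days and least so at day 5. Of the other 17 nuclear receptors kept, Nr0b2, a corepressor induced by bile acids, had 1967 against 685 (-1.43) and Rxrb 468 against 1047 (1.05), while Hnf4a (0.60), Rxra (0.32) and Ppara (-0.49) lay within 2-fold.

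RNA of the receptors and ligands of both pathways lay mostly within 2-fold. Egfr had 3539 against 4714 (0.41), with its 6 probe sets between -0.06 and 1.63, and the ligands Tgfa (0.39), Hbegf (0.30, or -0.12 from its other probe set), Btc (0.022) and Ereg (0.092) lay within 2-fold. None of the 11 genes of this family that were kept was 2-fold apart, against 5.52% of all genes. In lists this small, such low counts do not set the genes apart from that share. Hgf had 224 against 481 (0.91), and the adaptor Grb2 was the only 1 of 10 MET and HGF genes past 2-fold (368 against 961, 1.23), where its other probe set gave 0.04. Among 21 ERK response genes, the feedback phosphatase Dusp6 had 1413 against 467 (-1.46) and Dusp1 -1.28, and Spred2 stood at -0.81. Fosl1 (78.1 against 611, 2.19) and Junb (224 against 592, 1.17) were at least 2-fold higher. The shares of all genes were 2.89% higher and 2.63% lower by at least 2-fold. The list median was 0.059, or -0.24 under a filter at the upper quartile. Dusp6 stood at 769, 1413, 872 and 704 in control against 267, 467, 731 and 1082 in MET KO + EGFRi, more than 2-fold apart at days 0 and 1 only. The Sprouty feedback genes Spry1, Spry2 and Spry4 stood at -0.36, -0.12 and 0.01, and Fos, Egr1 and Etv5 at 0.12, 0.079 and 0.059.

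Cyclin D1 (Ccnd1), which drives hepatocytes out of quiescence, had 6318 against 3172 at day 1, a difference of -0.98. It stood at 4553, 6318, 6381 and 5647 in control against 1232, 3172, 3571 and 4264 in MET KO + EGFRi on days 0, 1, 2 and 5, so the gap was widest at day 0 (-1.83) and the arms did not overlap. Its 3 probe sets ran from -1.07 to -0.56 at day 1. None of 20 G1/S regulators kept was 2-fold apart and 17 were lower, against 5.52% and 49.2% of all genes. Their median was -0.17. E2f3 (-0.80), E2f8 (-0.64) and E2f2 (-0.53) lay below control and Ccne1 (0.64) above, and another probe set of E2f3 gave 0.10. Myc had 303 against 254 (-0.20) and Foxm1 959 against 1353 (0.47). Of 19 CDK inhibitors and p53 targets, Gadd45g (2.66) and the inhibitor Cdkn1c (117 against 345, 1.14) were at least 2-fold higher, against 2.89% of all genes. Cdkn1a had 634 against 723 (0.17) and Cdkn1b 227 against 384 (0.61).

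Genes of DNA replication lay mostly below control at day 1, nearly all by less than 2-fold. Of 15 origin licensing genes kept, 12 were lower, with a median of -0.44. Of 24 genes for polymerases, the clamp and nucleotides 16 were lower, with a median of -0.37, against 49.2% of all genes. Only geminin (Gmnn), which blocks relicensing, was past 2-fold (1034 against 328, -1.47), against 5.52% of all genes. The helicase subunits Mcm2 and Mcm3 had 1261 against 629.8 (-0.93) and 538 against 261 (-0.87). Mcm7 (-0.52) and Mcm5 (-0.41) were lower by less, and Mcm4 was nearly equal (-0.08). Rrm2, a subunit of ribonucleotide reductase, had 3684 against 1967 (-0.88), Pold2 560.3 against 261 (-0.93) and the clamp Pcna 3359.5 against 2461 (-0.44), and Rfc2 went the other way (0.92). Both arms stood above their signals of day 0, where Mcm2 was at 195 in control and 184 in the other arm, and Rrm2 at 551 and 603. The medians of the licensing list were -0.081, -0.44, -0.36 and 0.028 on days 0, 1, 2 and 5 and those of the polymerase list 0.009, -0.37, -0.39 and 0.23. Under a filter at the upper quartile, the licensing median at day 1 was -0.015, so its distance from 0 rests on dimmer genes.

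E2F factors switch on such genes as cells enter S phase, and the windows of Mcm3 and Mcm5 are printed as examples that held 2 matches each. Capitals mark matches to TTTCCCGC, TTTGGCGC, TTTCGCGC or TTTGCCGC on either strand, and those of Mcm5 overlap. Mcm3 lies at chr1:20820263-20820562 on the minus strand and Mcm5 at chr8:75109259-75109558 on the plus strand of GRCm38.p6.
Mcm3: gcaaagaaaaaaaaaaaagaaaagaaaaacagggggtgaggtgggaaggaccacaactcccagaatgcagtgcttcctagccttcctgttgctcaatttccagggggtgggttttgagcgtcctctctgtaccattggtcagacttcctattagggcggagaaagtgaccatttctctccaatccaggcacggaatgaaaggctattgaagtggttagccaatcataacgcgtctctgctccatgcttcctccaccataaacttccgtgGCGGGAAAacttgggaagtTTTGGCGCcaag
Mcm5: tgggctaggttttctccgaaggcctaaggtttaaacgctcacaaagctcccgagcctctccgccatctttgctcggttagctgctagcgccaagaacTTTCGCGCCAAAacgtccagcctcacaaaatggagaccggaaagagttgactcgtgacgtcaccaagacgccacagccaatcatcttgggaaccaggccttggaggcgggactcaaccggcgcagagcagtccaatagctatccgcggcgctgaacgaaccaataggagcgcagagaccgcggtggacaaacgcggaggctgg
Of 12 licensing genes with a window, 7 (58.3%) held a match, and of 22 polymerase and nucleotide genes 6 (27.3%), against 2.60% of all genes with a window. Of single windows 2.26% held at least 1 match and 0.0974% at least 2.

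Genes of mitosis were closer to control at day 1 than at day 2. Of 30 kept, 5 were at least 2-fold lower and 1 at least 2-fold higher, against 2.63% and 2.89% of all genes. The median was -0.22, against -0.74 at day 2, a difference between days that was not tested for the list. Among the brighter members alone, under a filter at the upper quartile, the day 1 median turned to 0.21. The kinase Cdk1 had 784 against 348 (-1.03) and cyclin B2 (Ccnb2) 424 against 174 (-1.02). Cdc20, which activates the anaphase promoting complex, had 1469.9 against 349 (-1.88), with -0.77 from its other probe set, and Ect2 had 501 against 209 (-1.03). Cdk1 stood at 95, 784, 1421 and 317 in control against 88.5, 348, 383 and 449.9 in MET KO + EGFRi on days 0, 1, 2 and 5, so at day 1 the MET KO + EGFRi signal was above its own of day 0 and below that of control. The kinetochore subunit Spc24 had 869.8 against 63 (-2.81), and at day 0 already stood at 319 and 60.8, while its partner Spc25 stood at -0.81, or 0.38 without probe sets that can bind related RNAs. Mki67 had 447 against 263 (-0.63) and Top2a stood at -0.50. Incenp was the gene at least 2-fold higher (163 against 534, 1.37).

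**Figure D3:**
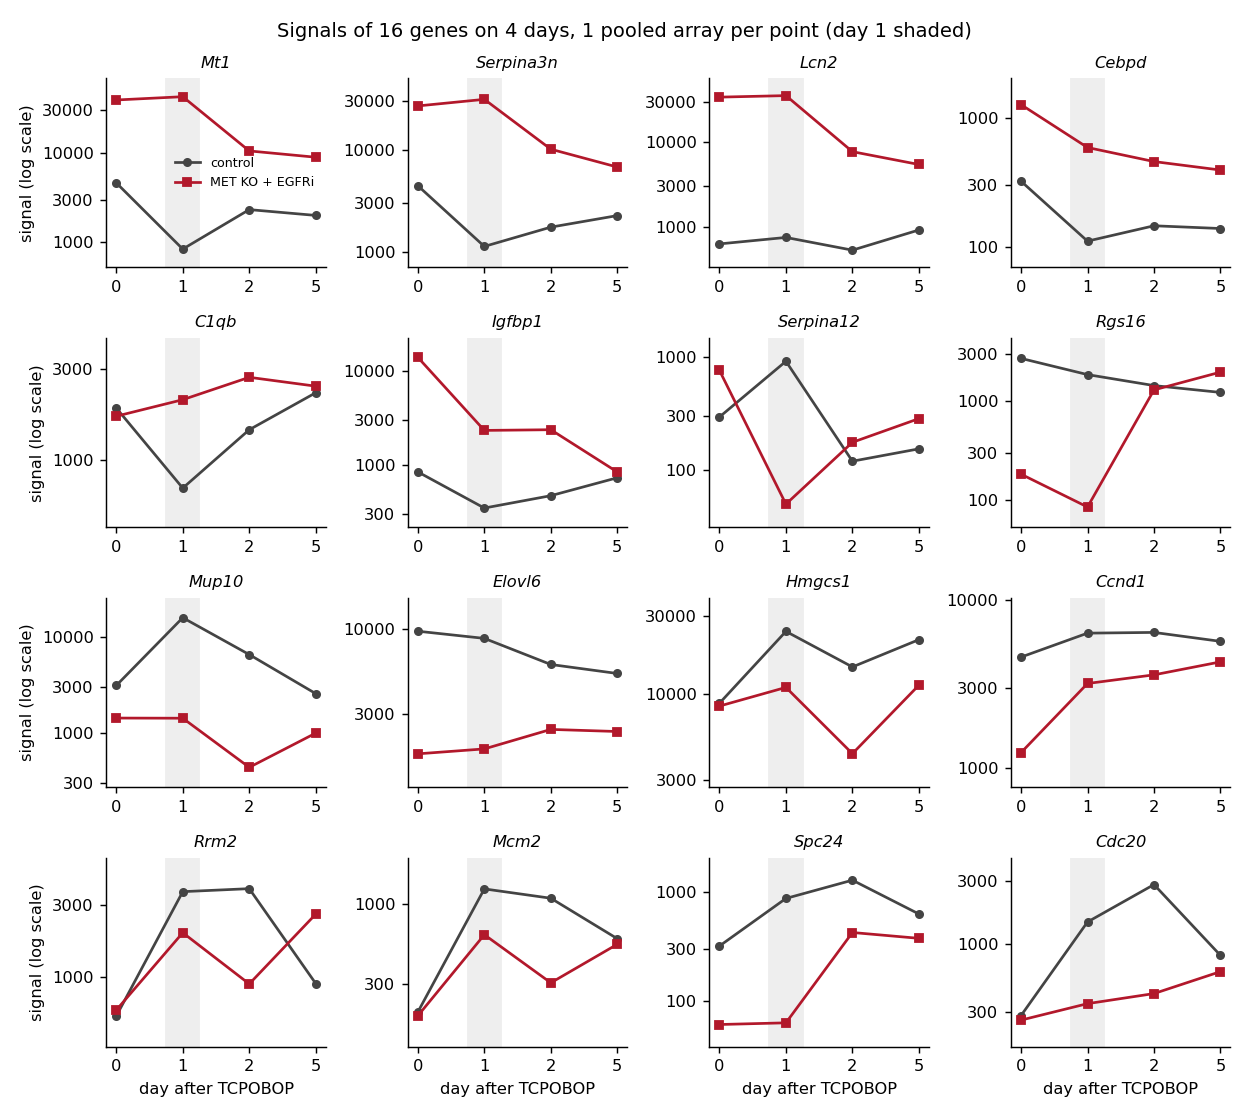
Signals (log scale) of 16 genes are drawn on days 0, 1, 2 and 5 (horizontal axis, drawn at even steps) with 1 pooled array per point, control in grey circles and MET KO + EGFRi in red squares, and day 1 shaded. Mt1, Serpina3n and C1qb have their lowest control signal at day 1, Mup10 its highest, and Ccnd1 and Elovl6 lie below control on each day.

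Genes of the protein making machinery were within 2-fold. Of 32 ribosome biogenesis genes kept, 24 were higher, none 2-fold apart, and the median was 0.19. Of 15 cytosolic ribosomal proteins 13 were lower, with a median of -0.23. The shares of all genes were 50.8% higher, 49.2% lower and 5.52% 2-fold apart. In polyamine synthesis, Mat1a, which makes S-adenosylmethionine in the adult liver, had 13419.5 against 37478 (1.48), Sat1 1795 against 3951 (1.11), and ornithine decarboxylase (Odc1) stood at 0.23. In one-carbon metabolism, betaine-homocysteine methyltransferase (Bhmt) had 7944 against 38878 (2.28) and Mthfd2 276 against 819 (1.36), or 0.90 as the mean of its probe sets. Phgdh, the first enzyme of serine synthesis, had 3751 against 462 (-2.84), with -0.70 from its other probe set. Bhmt was lower in the control array of day 1 than in control at days 0 and 5, with 24389, 7944, 8479.8 and 16844 in control against 30499, 38878, 19463 and 24474 in MET KO + EGFRi.

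Of the zonated genes, Cyp2f2, a periportal cytochrome, had 25618 against 3117 (-3.01). It ran from 20696 to 30518 in the 4 control and from 3117 to 5912 in the 4 MET KO + EGFRi arrays. Among the other 17 periportal and urea cycle genes, Cdh1 was at least 2-fold lower (1052 against 423, -1.19) and the urea cycle enzyme Asl at least 2-fold higher (6379.6 against 13571, 1.08), and Cps1 (-0.02), Ass1 (0.057) and Arg1 (0.34) lay near or above 0. None of 16 pericentral genes was 2-fold apart, with Glul at -0.079, Axin2 at -0.08 and Lgr5 at -0.32. The shares of all genes were 2.89% higher and 2.63% lower by at least 2-fold, together 5.52%. Beside these shares, a count of none among 16 genes does not set the pericentral list apart. Bile acid synthesis held 1 gene past 2-fold, Nr0b2, and Cyp7a1, its rate-limiting enzyme, had 3967 against 2023 (-0.95). Of 16 transporters of bile acids and drugs, Slco1a1 had 1979 against 884 (-1.10), or -2.04 as the mean of its probe sets, and the bile salt pump Abcb11 stood at -0.72.

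Retinoid genes held 3 of 15 past 2-fold, against 5.52% of all genes. The retinoic acid hydroxylase Cyp26b1 had 92.8 against 758 (2.34), Adh4 3417 against 881 (-1.87) and Rdh11 2506 against 1122 (-1.11). Gclc, the rate-limiting enzyme of glutathione synthesis, had 3956 against 1484 (-1.37) and was the only one of 17 NRF2 targets past 2-fold, and Nqo1 stood at 0.71. Of 25 interferon-stimulated genes, Irf7 was at least 2-fold higher (1472 against 3120.4, 1.05) and Bst2 at least 2-fold lower (1399 against 564, -1.21), and the median was 0.20 against 0.94 at day 0. For this list and the next, the shares of all genes were 2.89% higher and 2.63% lower by at least 2-fold. Of 15 chemokines and cytokines, the neutrophil attractant Cxcl1 had 2107 against 6110.0 (1.505), with 3.60 and 4.88 from its other probe sets, and Ccl6 287 against 742 (1.18), with 2.30 from its other, while Ccl9 had 18704 against 7567 (-1.30) and Mif 6522 against 2565 (-1.32), where a dimmer kept probe set gave -0.45 and the mean of its probe sets -0.30. Il6, Tnf and Il1a did not pass the filter.

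No gene was 2-fold apart among 30 proteasome subunits, 32 respiratory chain subunits, 25 genes of the unfolded protein response or 17 secreted hepatocyte proteins. Their medians were -0.071, -0.26, -0.14 and -0.029, and 27 of the 32 respiratory chain genes were lower. Of all genes, 5.52% were 2-fold apart and 49.2% lower at any size. Of 30 coagulation and complement proteins 1 was past 2-fold (C9, 11141 against 5506, -1.01, or -0.91 after quantile normalization), of 13 heat shock genes 1 (Dnajb1, -1.20, with 0.48 from its other probe set), of 16 iron genes 1 (Steap4), of 13 amino acid transporters 1 (Slc3a1, 3188 against 8027, 1.31), of 20 extracellular matrix genes 1 (Dcn, 3946 against 8464, 1.09, with 0.035 from its other probe set) and of 11 YAP targets and fetal liver genes 1 (Ccn2, 156 against 416, 1.10). Among endothelial markers, Lyve1 had 272 against 2144 (2.69) and endoglin (Eng) 658 against 181 (-1.53), in opposite directions. The pancreatic enzyme genes Ctrb1 (755 against 93.5, -2.33) and Prss2 (744 against 219, -1.49) were lower, and Cela1 (0.029) and Cel (0.014) were not.

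Several of the largest differences lay outside these lists. Mmd2 had 98.6 against 3866 (4.54), with 4.85 from its other probe set, and its MET KO + EGFRi signals (2594 to 4089) lay far above its control signals (79.1 to 118) on each day. The chitinase-like protein Chil1 had 70.8 against 1306 (3.28), the acyl-CoA synthetase Acsl6 59.5 against 921 (2.93) and the formin Inf2 1422 against 9661 (2.70). Setd4 had 2020.4 against 196 (-2.97), and its 3 probe sets ran from -2.97 to -1.89. Tubb2a, a tubulin, had 4554 against 732 (-2.53), or -1.03 as the mean of its probe sets. Gas1 had 2318 against 373 (-2.43), with -1.12 from its other kept probe set. Rusc1 (148 against 2059.9, 3.28) gave 0.17 from its other kept probe set, and Cfap61 (2113 against 330.0, -2.45) gave -0.20. The laminin chain Lama5 had 1258 against 213 (-2.23), and its 2 dimmer probe sets, not kept, gave 0.24 and 0.65.

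**Figure D4:**
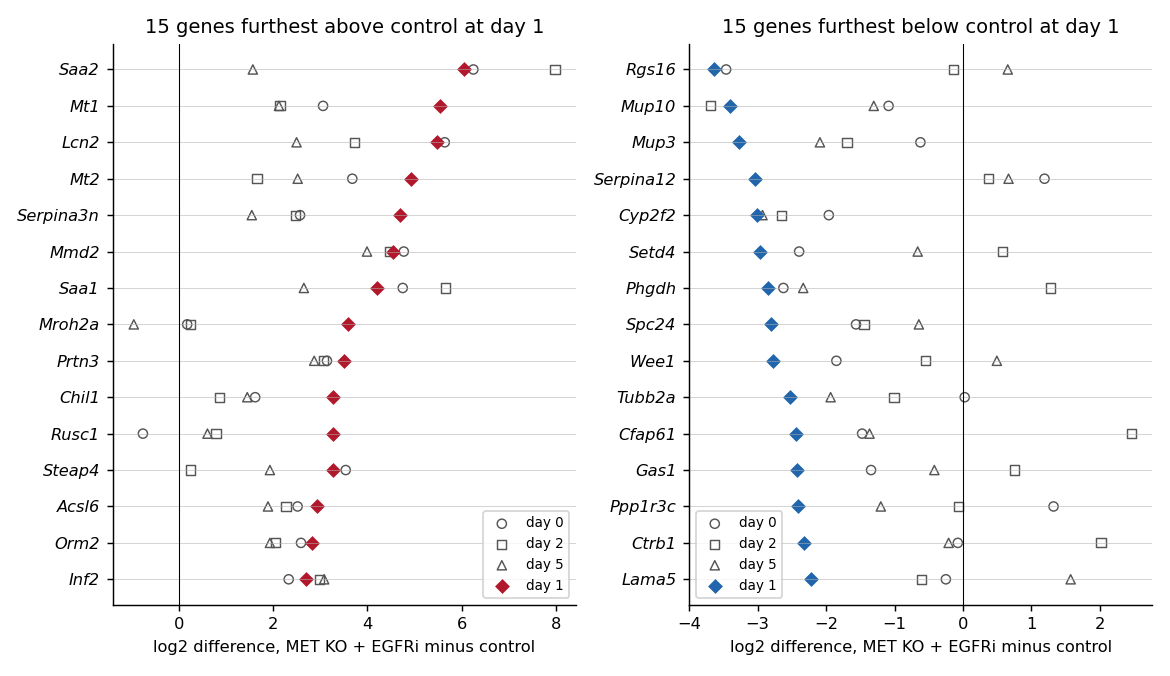
Log2 differences between the arms (horizontal axis) are drawn for the 15 genes furthest above (left, red diamonds) and the 15 furthest below control (right, blue diamonds) at day 1, with open circles, squares and triangles for days 0, 2 and 5. Saa2, Lcn2, Mmd2, Prtn3 and Inf2 lie above control on each day, whereas Mroh2a, Serpina12 and Ctrb1 lie apart at day 1 from where they lie on the other days.

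Genes 2-fold apart at day 1 were in part those apart on other days. Of the 350 higher, 100 (28.6%) were also at least 2-fold higher at day 0, which is 31.2% of the 320 (2.64% of all genes) of that day. The numbers shared with day 2 and day 5 were 92 (26.3%, and 26.4% of 349) and 68 (19.4%, and 25% of 272). Of the 319 lower, 71 (22.3%, and 26.9% of 264), 56 (17.6%, and 22.8% of 246) and 41 (12.9%, and 15.6% of 262) were shared with days 0, 2 and 5. Of all genes, 2.18% were 2-fold lower and 4.82% 2-fold apart at day 0, 2.88%, 2.03% and 4.91% were higher, lower and apart at day 2, and 2.25%, 2.16% and 4.41% at day 5. Of the 350 higher genes, 29 were past 2-fold on all 3 other days and 181 (51.7%) on none, and of the 319 lower genes 8 and 197 (61.8%). The same shares over all genes were not computed. On each other day only 2.03% to 2.88% of all genes were past 2-fold in 1 direction. The 51.7% and 61.8% therefore do not mark these genes as particular to day 1.

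Whether day 1 stood apart was tested with limma over the 8 arrays, as the difference between the arms at day 1 against that on days 0, 2 and 5. No gene had a Benjamini-Hochberg adjusted p under 0.05, and 381 of 12112 (3.15%) had an unadjusted p under 0.05. The test has 2 residual degrees of freedom, from the spread of the arm difference over the other 3 days. Among the genes of smallest p, Mt1 stood further apart at day 1 by 3.10 on the log2 scale (standard error 0.46, limma adjusted p = 0.656). Mroh2a did so by 3.76 (standard error 0.52, adjusted p = 0.656) and C2cd5 by 2.67 (standard error 0.39, adjusted p = 0.656). On the lower side were Serpina12 with -3.78 (standard error 0.51, adjusted p = 0.656), Zfp518b with -2.42 and Igbp1 with -2.38.

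Mroh2a had signals of 1668, 87.8, 1424 and 2028 in control against 1889.9, 1834, 1703 and 1008 in MET KO + EGFRi on days 0, 1, 2 and 5, so the single low value was the control array of day 1. Its other probe set, not kept, gave -0.032. C2cd5 was low in the same array, at 1048, 134, 999 and 1156 in control against 923, 930.1, 542 and 1014 in MET KO + EGFRi, and its other kept probe set gave 0.52. Serpina12 was at 296, 925, 120.3 and 155 in control against 768, 50.1, 177 and 287 in MET KO + EGFRi, highest of the controls and lowest of the other arm at day 1. Its other probe set did not pass the filter and gave 0.022 at day 1. Zfp518b (831, 759, 1015 and 423 against 1032, 125, 973 and 766) and Igbp1 (431, 1122, 1152 and 1559 against 711, 224, 1843 and 1364) had their lowest signal at day 1 in MET KO + EGFRi, and the other 3 kept probe sets of Igbp1 ran from -0.07 to 0.26. Serpina3n (2.49), Cd36 (1.41), Bhmt (1.597), Mt2 (2.31) and C1qb (1.16) also had an unadjusted p under 0.05 and did not pass the adjustment. Saa1 (-0.15), Ccnd1 (0.039), Mcm2 (-0.32) and Hmgcs1 (-0.23) had an unadjusted p above 0.05.

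**Figure D5:**
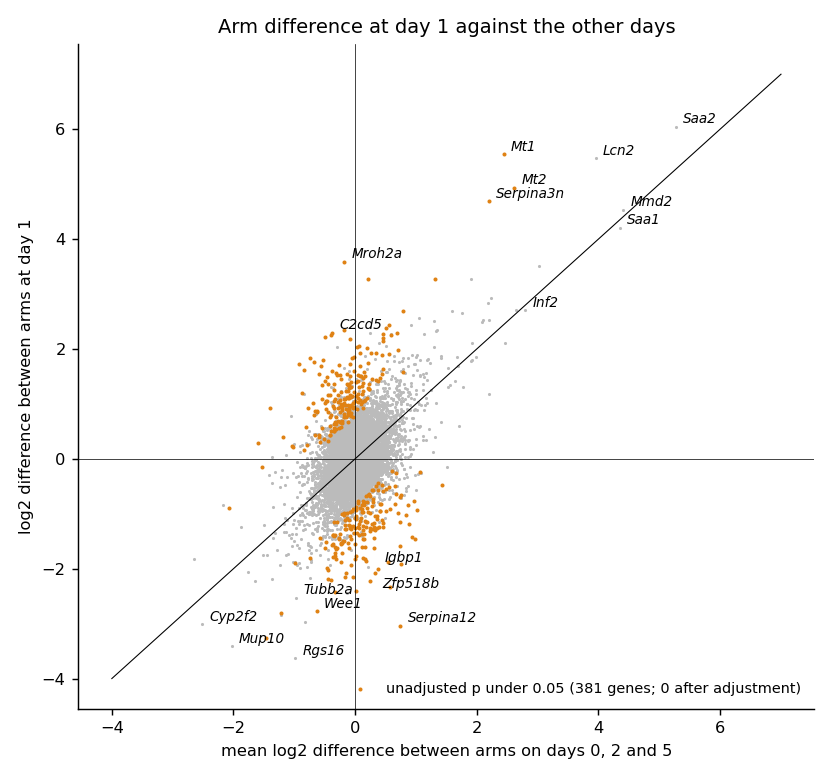
Each point is 1 of 12112 genes, with the mean log2 difference between the arms on days 0, 2 and 5 (horizontal) and the difference at day 1 (vertical), and the diagonal marks equal values. Orange marks the 381 genes with an unadjusted limma p under 0.05, none of which passed adjustment, with Mt1, Mroh2a and C2cd5 above the diagonal and Serpina12, Igbp1 and Zfp518b below it.

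Probe sets of the same gene gave a technical measure of how far a single value can be relied on. Of 101 genes at least 2-fold higher that had another kept probe set, 76 (75.2%) had all of them on the same side, and 33 (32.7%) had another past 2-fold. Of 89 genes at least 2-fold lower the numbers were 65 (73.0%) and 30 (33.7%). Among all 4377 genes with more than 1 kept probe set, all had the same sign in 50.6%, and the number of arrays, 1 per arm and day, limits the precision of each value. The median gap between a gene's brightest and its other probe sets was 0.97 for the higher and 0.94 for the lower genes. Sizes near 2-fold on 1 probe set are therefore uncertain. The gap was 0.31 for all genes, but genes past 2-fold were picked by their brightest probe set, which by itself widens theirs.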

How the data were processed

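The authors deposited 1 table of intensity values for the 8 arrays, which per the labels are MAS5 signals on a linear scale, trimmed by 2% at each end and scaled to a mean of 500. The scanner files and detection calls were not used here. Of 45101 probe sets, 64 controls were left out, 34945 named 1 gene, 932 several and 9160 none in the platform annotation, and 34741 took a current symbol through the gene ID. Signals were turned into log2(signal + 71), where 71 is the lower quartile of all values. A gene was its probe set of highest mean log2 and was kept at a mean of at least 8.236.

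Day 1 has 1 array per arm, so its differences have no replicate check and no test, and at least 2-fold is a size, not a call. The single test was limma 3.58.1 in R 4.3.3 over the 8 arrays, with terms for day, arm and arm at day 1, a trended prior and Benjamini-Hochberg adjustment over the 12112 genes. On simulated data it missed most changes of 2-fold. It takes the arm difference to vary among days 0, 2 and 5 by chance alone. The genes named were the 15 furthest from control in each direction at day 1 (kept, with the higher signal in the upper quartile of its array), up to 6 members of each list with the largest difference, the 3 of smallest p in the test in each direction and a fixed set of main genes such as Met, Egfr, Nr1i3, Cyp2b10 and Ccnd1. Gene models without a proper name were skipped. Other named genes were chosen after their values were seen, as list members of known role. The genes and lists were chosen with earlier results of these data known. Promoter windows came from RefSeq (GRCm38.p6), for 27025 genes, 32851 windows. A match to a motif there is a description and not a site. Alternatives were other added constants, filters, scalings and rules for several probe sets, and leaving out each other day.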

Additional observations from a re-analysis of the deposited data

Results flagged for a closer look

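Serpina12 had a log2 difference of -3.04 at day 1 and lay above control on days 0, 2 and 5, and C2cd5 had 2.29 at day 1 and lay below control on those days. The difference between day 1 and the other days did not pass the limma test for either gene (limma adjusted p = 0.656 for both, and no gene passed under any of 13 alternatives, with 0.196 as the smallest adjusted p). Among the probe sets left out of all comparisons because they name no gene or several, 107 that passed the filter were at least 2-fold higher in MET KO + EGFRi at day 1 and 71 at least 2-fold lower, of 3732.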

How the results depend on the processing

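For the differences of named genes, 2689 recomputed values lay within the spread of the gene's own arm difference over the 4 days and most of the rest moved without a change of sign. That spread includes day 1 and is wide for genes that changed over the days, so it is a loose limit. Rgs16, for example, went from -3.63 to -1.48 as the mean of its probe sets and still lay within it. Values of Mt1 (5.54 to 2.56), Phgdh (-2.84 to -1.34) and Rusc1 (3.28 to 1.11) also shrank under an alternative. Of 329 named genes, 22 had the opposite sign under at least 1 alternative, and 2 of these were at least 2-fold apart, both under a filter on the mean of the 2 day 1 arrays, which chose another probe set: Dnajb1 went to 0.48 and Igbp1 to 0.26. The numbers of genes higher, lower and together apart were 1051, 998 and 2049 at 1.5-fold, 108, 79 and 187 at 3-fold, 160, 157 and 317 with a filter at the upper quartile, 631, 602 and 1233 with no filter, and 199, 181 and 380 with the median as the added constant. With the mean of all probe sets, 201 were lower and 437 apart. A stricter fold or filter or a larger constant leaves fewer genes past the rule by construction. How far this accounts for these counts was not tested, nor was the cause under the mean of all probe sets.

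List medians moved as follows. The upper quartile filter gave 0.23 for EGF family, -0.24 for ERK response, -0.015 for origin licensing and 0.21 for mitosis genes. The day 1 filter gave 0.042 for MET and HGF genes and -0.0038 for extracellular matrix. The mean of all probe sets gave -0.15 for nuclear receptors, -0.20 for CAR target growth genes, 0.050 for MET and HGF genes, 0.0056 for polyamine synthesis, 0.063 for glucose genes, -0.0066 for the growth hormone axis and -0.064 for YAP targets. Without a filter, metallothioneins and zinc carriers stood at 0.66 and cholangiocyte markers at 0.055, and quantile normalization gave 0.11 for amino acid transporters. Without the probe sets that can bind related RNAs, acute phase proteins stood at 0.70, CAR target growth genes at -0.20, polyamine synthesis at -0.10, the growth hormone axis at 0.45, NRF2 targets at -0.26 and YAP targets at 0.37. The cause was not tested for these medians.

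The limma test called 0 genes under each of 13 alternatives, with 167 to 674 at an unadjusted p under 0.05. The smallest adjusted p was 0.196, for Mt1, without the day 0 arrays. With 1 pooled array per arm and day, no difference between animals can be told from a difference between arms. The test holds day as a term, so the arms are paired by day, and with 2 residual degrees of freedom a count of 0 does not show that the arms differed alike on all days.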
